A study of Mus musculus with 7 samples.

Results

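The genes described here are 39 genes of the lysosome, comprising hydrolases, membrane proteins and subunits of the proton pump, in F4/80+ sorted CD11b+ wound macrophages. They were chosen by symbol, with earlier results of these data known. Each is represented by the probe set that carries its symbol alone, and, where several do, by the probe set with the highest mean over all arrays. Of the 39 genes, 37 were measured in this way, out of 30176 genes on the array. Glb1, the lysosomal beta-galactosidase, and Atp6v0c, the subunit of the pump's rotor ring, have no probe set of their own symbol alone and were not analysed here.

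The macrophages came from polyvinyl alcohol sponges implanted beneath the dorsal skin of mice and taken out on day 3 (d3, 3 samples) or day 7 (d7, 4 samples) after implantation, with 1 Affymetrix Mouse Transcriptome array for each sample. No treatment, transgene or deletion was named for either group, no strain was tied to these samples, and the study's methods gave an age of 8 to 10 weeks and both sexes for its mice in general. Both groups carried a wound, and no unwounded control was part of the comparison, which therefore addresses the change from the early to the late harvest. The labels called the samples biological replicates, numbered 1, 3 and 4 on d3 and 5, 6, 7 and 8 on d7. Whether animals were pooled was not stated, so p-values measure the spread between these samples, and the number of arrays limits the precision.

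The lysosome is the acidic compartment in which macrophages break down what they have engulfed, apoptotic neutrophils and cell debris among it. Soluble hydrolases do the digestion, activator proteins present lipids to them, and heavily glycosylated membrane proteins line and protect the organelle. The acid comes from the vacuolar ATPase (V-ATPase), a rotary proton pump with a cytosolic V1 sector that splits ATP and a membrane V0 sector that carries protons. Transcription factors of the MiT family (TFEB, TFE3, MITF and TFEC) bind E-box motifs in the promoters of many of these genes, a group known as the CLEAR network.

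Motifs of this kind were searched for in the promoters of the 33 members with a window in the RefSeq table (build GRCm38.p6), each window running from 250 bases before to 50 bases after an annotated start. The 6-base E-box CACGTG stood in a window of 11 of 33 members (33.33%), against 12.28% of the 7150 genes with a window whose probe set was above the array background, and 8.09% of all 27025 genes with a window. The 8-base CLEAR-type motif TCACGTGA, which contains CACGTG, was present in 6 members (18.18%, against 2.38% and 1.12%). The M-box-type motif TCACATGA, read as TCATGTGA on the other strand, was present in 4 members (12.12%, against 1.03% and 1.15%). Both strands were searched, and a gene with several windows was counted if any window held the motif. Only exact matches within these windows were sought, so a variant of a motif or a site elsewhere would be missed. The stretches below hold the 8-base motifs of the 8 measured members that have one, with M-box-type motifs alone in Tpp1 and Ppt1, together with the run of E-boxes of Lamp1. They are shown so that the values of each gene can be set beside its motifs. They read 5′ to 3′ on the gene's strand with the motifs in capitals.
Lamp1, chr8:13159080-13159171, plus strand: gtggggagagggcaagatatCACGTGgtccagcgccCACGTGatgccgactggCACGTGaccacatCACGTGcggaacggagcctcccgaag
Mcoln1, chr8:3500428-3500500, plus strand: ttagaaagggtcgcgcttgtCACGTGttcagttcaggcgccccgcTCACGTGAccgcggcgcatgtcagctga
Gla, chrX:134601173-134601253, minus strand: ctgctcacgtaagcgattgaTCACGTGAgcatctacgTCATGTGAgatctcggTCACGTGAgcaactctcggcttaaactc
Tpp1, chr7:105752192-105752251, minus strand: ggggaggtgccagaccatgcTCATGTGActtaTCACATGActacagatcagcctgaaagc
Ppt1, chr4:122836220-122836267, plus strand: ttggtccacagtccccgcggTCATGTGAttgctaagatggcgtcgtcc
Ctsa, chr2:164833740-164833804, plus strand: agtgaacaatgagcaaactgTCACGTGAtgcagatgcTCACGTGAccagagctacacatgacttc
Atp6v0d1, chr8:105566041-105566088, minus strand: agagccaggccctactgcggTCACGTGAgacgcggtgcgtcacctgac
Atp6v0e, chr17:26676378-26676425, plus strand: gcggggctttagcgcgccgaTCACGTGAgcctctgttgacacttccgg
Atp6v1a, chr16:44139364-44139411, minus strand: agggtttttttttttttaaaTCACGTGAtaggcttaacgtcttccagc

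The promoter window of Gpnmb is shown whole, since Gpnmb was the member that passed the test. No exact match to the 3 motifs was found in it.
Gpnmb, chr6:49036268-49036567, plus strand: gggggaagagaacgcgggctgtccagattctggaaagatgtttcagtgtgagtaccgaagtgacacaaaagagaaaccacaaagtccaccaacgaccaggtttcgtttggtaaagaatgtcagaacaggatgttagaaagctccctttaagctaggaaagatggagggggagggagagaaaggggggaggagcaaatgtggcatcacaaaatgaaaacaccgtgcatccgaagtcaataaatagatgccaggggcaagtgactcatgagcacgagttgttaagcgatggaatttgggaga

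**Figure D1:**
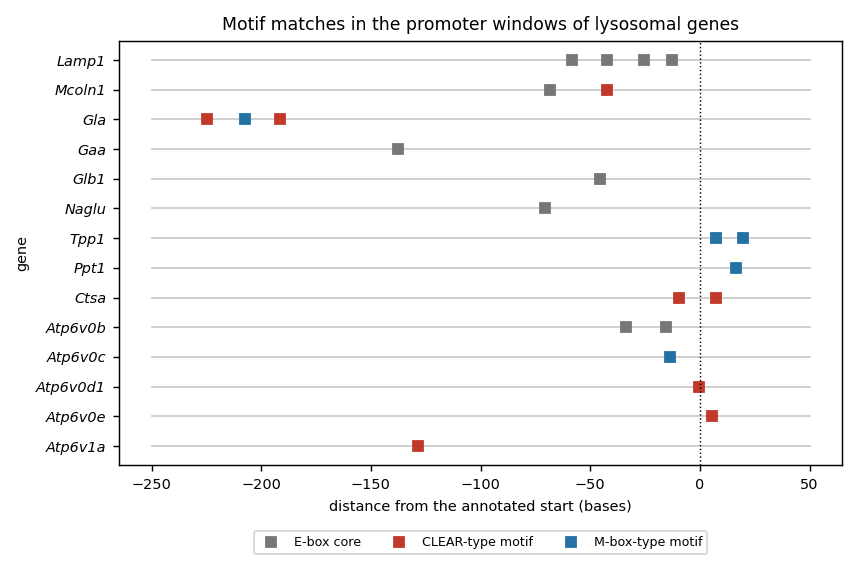
Position of each motif match (squares) in the promoter windows of the members with a match, in bases from the annotated start (dotted line). The x axis runs over the window from 250 bases before to 50 after the start, and grey, red and blue mark the E-box outside a longer motif, the CLEAR-type motif and the M-box-type motif.

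Over the whole array, levels are log2 values, so a difference of 1 is a change of 2-fold, and levels of different probe sets are not comparable with each other. Array medians ran from 4.14 to 4.22, and the array background, the highest value of an antigenomic probe, was 5.39. Of 65956 probe sets tested, 19774 (29.98%) lay above it, all 37 members among them. The sorting markers Adgre1 (F4/80, 16.82 to 16.87) and Itgam (CD11b, 17.09 to 17.16) were high on every array. The summed level of 8 macrophage markers was 20.29 to 20.37 on d3 and 20.28 to 20.35 on d7. Such a sum weighs its brightest probe sets most. In the macrophage sum this was Lyz2 (mean 19.45 on d3 and 19.36 on d7), and in the monocyte sum below Ly6c2 (17.78 and 15.76). Among the macrophage markers Fcgr1 (-0.37) and Lyz2 (-0.08) were lower and Cd68 (0.33) and Mertk (0.44) higher on every d7 array. The other 4 overlapped, and none of the 8 passed the test. The study named both sexes for its mice in general, but on every array here the sex-linked genes had the pattern of male cells. Xist was below the background (3.74 to 3.78), and the Y-linked Uty (8.34 to 8.56), Kdm5d (7.73 to 8.03) and Eif2s3y (8.84 to 8.93) were above it. None of 9 fibroblast, 6 keratinocyte, 7 T and NK cell or 6 dendritic cell markers was above the background, while 2 of 6 endothelial, 1 of 4 B cell and 1 of 6 mast cell markers were. The summed level of the endothelial markers was 8.4 to 8.52 on d3 and 8.1 to 8.2 on d7, that of the B cell markers 6.79 to 6.95 and 6.9 to 7.05, and that of the mast cell markers 7.31 to 8.03 and 7.48 to 8.6. Of 6 monocyte markers 5 were measured, with a summed level of 17.59 to 18.21 on d3 and 16.17 to 16.58 on d7, and none passed the test. Ly6c2, Ccr2 and Plac8 were lower on every d7 array, F13a1 was higher on every d7 array (by 1.07), and Vcan overlapped. The summed level of 11 neutrophil markers, 6 of them above background, was 13.74 to 14.04 on d3 and 13.82 in d7 replicate 6, but 12.9 to 13.28 on the other d7 arrays. Of these markers Retnlg fell by 4.85 (adjusted p = 0.0432, and 0.0476 to 0.191 with an array left out), and Mmp8 was lower on every d7 array (-1.10, adjusted p = 0.172). The other 9 overlapped, and of all 11 the d7 mean was higher in 6 and lower in 4. S100a8 (0.13), S100a9 (0.14) and Cxcr2 (0.14) had higher d7 means, with d7 replicate 6 the highest array (12.06, 10.95 and 8.31). The part of these marker differences in the results below was not tested. In 1 array, d3 replicate 3, the median of the positive control probes was 9.78, where the remaining arrays had 10.01 to 10.09, and its weight from limma was 0.41, against 0.93 to 1.38. Most results that move with it are given with and without it.

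Between d3 and d7, 1 of the 37 lysosomal genes passed the test, Gpnmb, which rose (limma, adjusted p under 0.05 over all probe sets). Over the array, 0.117% of the probe sets passed, and 0.0637% passed as higher on d7. No member passed as lower. Short of that threshold, most members lay to one side. The d7 mean was the higher in 29, the lower in 7 and equal in Tfeb. Of the probe sets above background, 48.41% had the higher mean on d7. Among the 7, Neu1, Psap, Npc2 and Atp6v0b turned to higher with quantile normalization and with median centring. Among the 29, Lamp2, Atp6v1f and Atp6ap1 turned to lower without d3 replicate 3, and Lamp1 without d3 replicate 1. Lamp2 also did so with array weights. The median difference (d7 minus d3) of the 37 members was 0.15, against 0.0 over the probe sets above background. In 14 of 37 members every d7 array lay above every d3 array, where 6.55% of the probe sets above background did so. In 0 members every d7 array lay below, where 8.03% of the probe sets did. These shares are descriptive, since the members were chosen with earlier results of these data known. An unadjusted limma p under 0.05 was reached by 14 members in the higher direction and by 1, Acp2, in the lower, against 8.06% and 9.55% of the probe sets above background. Without d3 replicate 3 the arrays of the days did not overlap in 16 members in the higher direction and in 1, Acp2, in the lower (10.0% and 13.3% of the probe sets), and the median difference was 0.10.

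**Figure D2:**
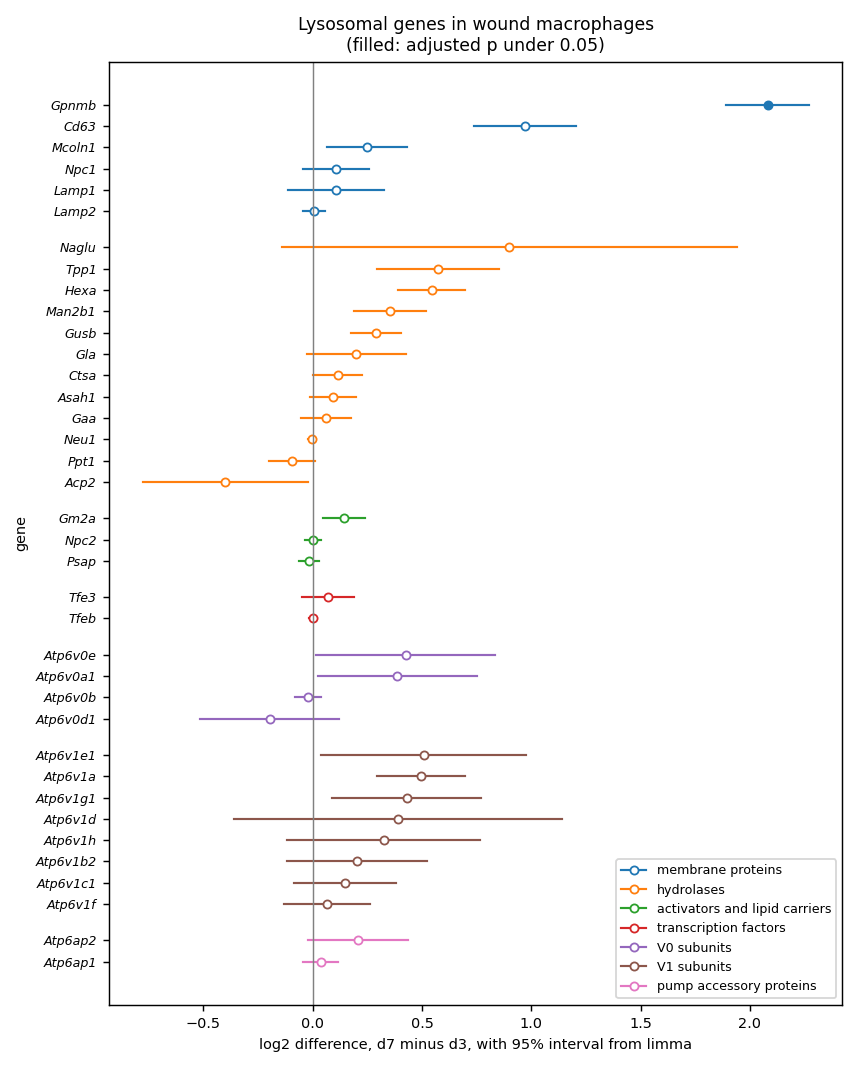
Difference d7 minus d3 (log2, x axis) with its 95% interval from limma for the 37 measured lysosomal genes, ordered by role and size. Gpnmb (2.08) is the filled point, and the intervals of 7 of the 12 V0 and V1 subunits span 0.

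Among the 6 membrane proteins, Gpnmb stood apart. Gpnmb, a transmembrane glycoprotein of endosomes, lysosomes and melanosomes, was at 13.07, 13.07 and 13.09 on d3 and at 15.2, 15.19, 15.28 and 14.96 on d7. The d3 arrays were nearly equal and all d7 arrays lay far above them. The rise was 2.08 on the log2 scale (SE 0.08, 95% interval 1.89 to 2.27), or 4.23-fold (3.71 to 4.83), with an adjusted p of 0.00492, and it passed the test with any array left out (adjusted p 0.00157 to 0.0467). In sorted cells measured in bulk, more RNA per cell and more cells that hold the RNA cannot be told apart.

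Cd63, a tetraspanin of late endosomes, lysosomes and exosomes, followed. Its levels were 15.87, 16.03 and 15.64 on d3, against 16.87, 16.82, 16.73 and 16.85 on d7. The groups did not overlap, and the d3 arrays spread more widely than those of d7. The difference was 0.97 (95% interval 0.74 to 1.21), or 1.96-fold, with an adjusted p of 0.0556, above the threshold. It passed when the probe sets below background were left out (adjusted p = 0.0133) or the arrays were centred on their medians (adjusted p = 0.0143), with a range of 0.0133 to 0.223 over all alternatives. Mcoln1, the cation channel mucolipin-1, whose promoter holds both a CLEAR-type motif and a further E-box, was at 8.44, 8.52 and 8.71 on d3 and at 8.71, 8.86, 8.81 and 8.84 on d7. The highest d3 array met the lowest d7 array. The difference was 0.25 (0.07 to 0.43, adjusted p = 0.606).

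The structural proteins of the membrane differed little. Lamp1 and Lamp2, the abundant glycoproteins that coat the inner face of the membrane, differed by 0.11 (95% interval -0.11 to 0.32) and 0.0069 (-0.04 to 0.06), and Npc1, which exports cholesterol, by 0.11 (-0.04 to 0.26). Without d3 replicate 3 the differences were 0.17, -0.02 and 0.14, and the days no longer overlapped in Npc1. The 4 E-boxes shown above for Lamp1 thus stood beside a difference whose interval spans 0.

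**Figure D3:**
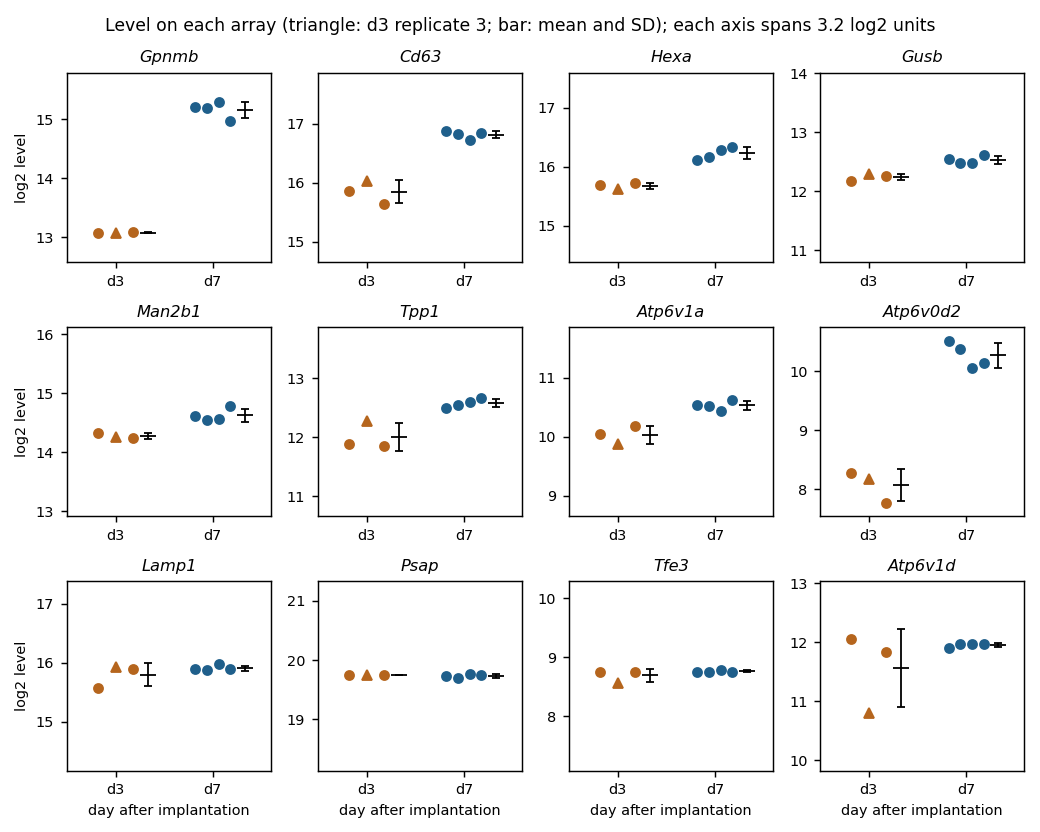
Log2 level on each array (y axis, 3.2 log2 units in each panel) of 12 lysosomal genes on d3 and d7, with triangles for d3 replicate 3 and bars for mean and SD. In the panels of Gpnmb and Atp6v0d2 the days are about 2 units apart, while the low d3 mean of Atp6v1d comes from the triangle at 10.81.

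The 12 hydrolases gave no gene past the test. In 7 of them the d7 arrays all lay above the d3 arrays (6.55% of the probe sets above background), also without d3 replicate 3 (10.0%). The d7 mean was the higher in 9 (48.41% of the probe sets above background) and the lower in 3. The median difference was 0.16 (0.08 without d3 replicate 3). The 3 with the smallest p are described first. Hexa, the alpha subunit of beta-hexosaminidase, which trims GM2 ganglioside, was at 15.69, 15.63 and 15.73 on d3 and at 16.12, 16.17, 16.29 and 16.34 on d7. All d7 arrays were higher, by more than the spread within either day. The difference was 0.54 (95% interval 0.39 to 0.70), or 1.46-fold, with an adjusted p of 0.0773, which became 0.0196 when the probe sets below background were left out and ran up to 0.269 over all alternatives.

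Gusb, the beta-glucuronidase of glycosaminoglycan breakdown, was at 12.18, 12.29 and 12.26 on d3 and at 12.55, 12.48, 12.48 and 12.62 on d7. The days did not overlap, with a difference of 0.29 (0.18 to 0.41, adjusted p = 0.176). Man2b1, the lysosomal alpha-mannosidase, was at 14.33, 14.26 and 14.24 on d3 and at 14.62, 14.54, 14.56 and 14.79 on d7. Here too every d7 array was the higher, with a difference of 0.35 (0.19 to 0.52, adjusted p = 0.249). No exact match to the 3 motifs was found in the windows of Gpnmb, Cd63, Hexa, Gusb or Man2b1, and sites elsewhere were not searched for.

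A further 2 hydrolases are named because of their size and were chosen after their values were seen. Tpp1, tripeptidyl peptidase 1, whose promoter holds a pair of M-box-type motifs, was at 11.88, 12.28 and 11.86 on d3 and at 12.5, 12.55, 12.59 and 12.66 on d7. The days did not overlap although d3 replicate 3 lay nearer to d7 than its fellows. The difference was 0.57 (0.29 to 0.85, adjusted p = 0.273), and 0.71 without that array. Naglu, an enzyme of heparan sulfate breakdown, was at 10.21, 8.73 and 10.32 on d3 and at 10.57, 10.6, 10.94 and 10.49 on d7. A large part of its spread lay in d3 replicate 3, with which the difference was 0.90 (-0.14 to 1.94, adjusted p = 0.662) and without which it was 0.39.

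Acp2, the lysosomal acid phosphatase, ran the other way and was likewise named after its values were seen. Its levels were 13.97, 13.36 and 13.68 on d3, against 13.17, 13.18, 13.41 and 13.32 on d7. The lowest d3 array lay within the range of d7, and the difference was -0.40 (-0.78 to -0.02, adjusted p = 0.647), or -0.55 without d3 replicate 3. The other 6 hydrolases had small differences. Gla, alpha-galactosidase A, whose promoter holds 2 CLEAR-type motifs and 1 M-box-type motif, differed by 0.20 (-0.03 to 0.43), and Ctsa, the protective protein with 2 CLEAR-type motifs, by 0.11 (0.0029 to 0.22). The remaining values were 0.09 for Asah1 (acid ceramidase), 0.06 for Gaa (acid alpha-glucosidase, which degrades glycogen), -0.0038 for Neu1 (sialidase) and -0.10 for Ppt1 (palmitoyl-protein thioesterase 1, with the M-box-type motif shown above), all with intervals that span 0. Without d3 replicate 3 the differences were 0.10 for Gla, 0.06 for Ctsa, 0.05 for Asah1, 0.0040 for Gaa, -0.0038 for Neu1 and -0.06 for Ppt1.

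The activators and lipid carriers were close to level between the days. Gm2a, the activator that lifts GM2 ganglioside out of the membrane for the enzyme Hexa encodes, was at 10.06, 9.97 and 10.02 on d3 and at 10.19, 10.12, 10.23 and 10.11 on d7. All d7 arrays were above d3, by a difference of 0.14 (0.05 to 0.24, adjusted p = 0.497). Psap, the precursor of the saposins, was at 19.75 on each of the 3 d3 arrays and at 19.73, 19.69, 19.77 and 19.74 on d7, a difference of -0.02 (-0.06 to 0.03). Its level lies above 16, the log2 limit of a 16-bit scanner reading, as do those of Lamp2 and the d7 levels of Cd63 and Hexa. Npc2, the soluble partner of Npc1, was at 11.96 on all d3 arrays and at 11.99, 11.96, 11.96 and 11.93 on d7, a difference of -0.0007 (-0.04 to 0.04).

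Neither transcription factor among the members passed the test. Tfeb had the same value, 6.09, on all 7 arrays. Such repeats were frequent in the deposited values: 3754 of the tested probe sets had 1 value on all arrays, and 16 of 37 members had 7 different ones (32.54% of the probe sets above background did). Tfe3 was at 8.75, 8.57 and 8.75 on d3 and at 8.75, 8.75, 8.79 and 8.75 on d7, so that the arrays were equal to within 0.04 but for d3 replicate 3. Its difference was 0.07 (-0.05 to 0.19, adjusted p = 0.662) and 0.0099 without that array. The levels are those of RNA, and the location and activity of the proteins were not measured.

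Of the proton pump, 14 genes were measured and none passed the test. In 4 the days did not overlap, all higher on d7 (6.55% of the probe sets above background), and in 5 without d3 replicate 3 (10.0%). An unadjusted limma p under 0.05 in that direction was reached by 5 (8.06%). Of these, Atp6v1a and Atp6v1g1 still reached such a p without d3 replicate 3, while Atp6v0a1, Atp6v0e and Atp6v1e1 did not. Atp6ap2 reached it only without that array. The median difference was 0.27. This median was 0.15 without d3 replicate 3, which had the lowest value of all 7 arrays in 10 of the 14 pump genes (71.43%), in 9 of the 23 other members (39.13%) and in 24.57% of the probe sets above background. For the pump genes its level lay a median of 0.37 below the mean of d3 replicates 1 and 4 (-0.37), against -0.02 for the other members and -0.007 over the probe sets above background. The part of this array's quality in these differences was not tested.

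**Figure D4:**
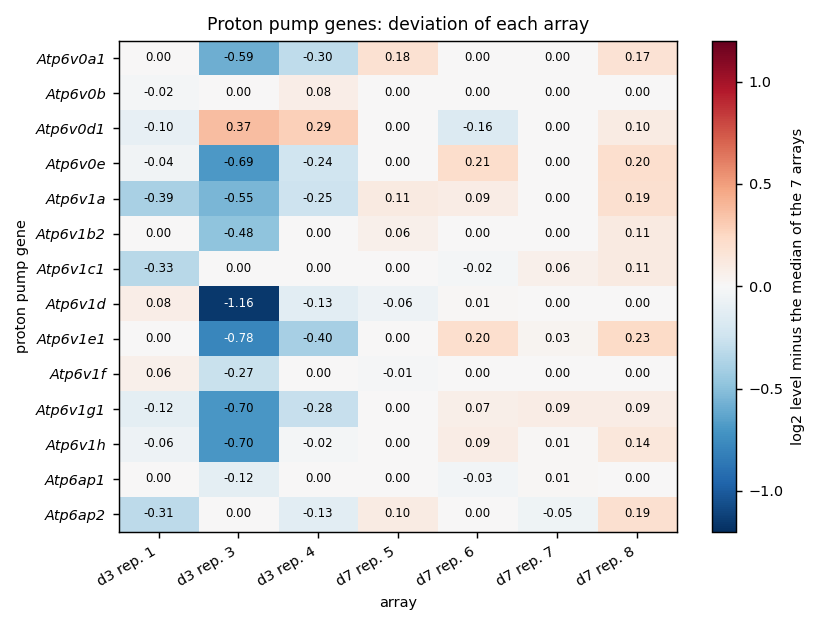
Log2 level of each of 14 proton pump genes (rows) on each array (columns) minus the median of the gene's 7 arrays, with the colour scale from blue (below) to red (above). The column of d3 replicate 3 holds most of the deep blue, down to -1.16 for Atp6v1d, while Atp6v0d1 is positive there (0.37).

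Within V0, the sector in the membrane, 4 subunits were measured, of which Atp6v0a1 and Atp6v0e had a higher mean on d7 and Atp6v0d1 and Atp6v0b a lower one, with no test of the difference between them. Atp6v0a1, an isoform of the subunit that forms the proton path, was at 11.99, 11.4 and 11.69 on d3 and at 12.17, 11.99, 11.99 and 12.16 on d7. The highest d3 array equalled the lower pair of d7 to the second decimal, and the difference was 0.39 (0.02 to 0.75, adjusted p = 0.647), or 0.24 without d3 replicate 3. Atp6v0e, a small membrane subunit with a CLEAR-type motif just after its start, was at 14.9, 14.25 and 14.7 on d3 and at 14.94, 15.15, 14.94 and 15.14 on d7. The days were separated by 0.04 at their nearest, and the difference was 0.43 (0.02 to 0.83, adjusted p = 0.647), or 0.24 without that array.

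Atp6v0d1, the subunit that couples the rotor ring to the stalk and whose promoter also holds a CLEAR-type motif, was at 9.49, 9.96 and 9.88 on d3 and at 9.59, 9.43, 9.59 and 9.69 on d7. Its groups overlapped, with a difference of -0.20 (-0.52 to 0.12, adjusted p = 0.662), or -0.11 without d3 replicate 3. Atp6v0b, of the rotor ring, differed by -0.02 (-0.08 to 0.04).

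In all 8 V1 subunits the d7 mean was the higher (48.41% of the probe sets above background). The median difference was 0.36, or 0.15 without d3 replicate 3, which was the lowest array in 7 of them. Atp6v1a, the catalytic subunit, was at 10.04, 9.88 and 10.18 on d3 and at 10.54, 10.52, 10.43 and 10.62 on d7. Every d7 array lay above every d3 array, by a difference of 0.50 (0.29 to 0.70, adjusted p = 0.186), and of 0.42 without d3 replicate 3. The CLEAR-type motif of its promoter is shown above.

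The stator subunits Atp6v1g1 and Atp6v1e1, which help to hold V1 still against the rotor, had differences of similar size to that of Atp6v1a and wider intervals. Atp6v1g1 was at 11.35, 10.77 and 11.19 on d3 and at 11.47, 11.54, 11.56 and 11.56 on d7, a difference of 0.43 (0.09 to 0.77, adjusted p = 0.645) without overlap. Atp6v1e1 was at 13.34, 12.56 and 12.94 on d3 and at 13.34, 13.54, 13.37 and 13.57 on d7, a difference of 0.51 (0.04 to 0.98, adjusted p = 0.647), with d3 replicate 1 at the level of the lowest d7 array. Without d3 replicate 3 these differences were 0.26 and 0.31.

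Of the other V1 genes, Atp6v1d, of the central rotor, is named after its values were seen. Its levels were 12.05, 10.81 and 11.84 on d3, against 11.91, 11.98, 11.97 and 11.97 on d7. All arrays but d3 replicate 3 lay within 0.21 of each other, and the difference of 0.39 (-0.36 to 1.14) became 0.01 without it. The differences of Atp6v1h (0.32), Atp6v1b2 (0.20), Atp6v1c1 (0.15) and Atp6v1f (0.07) had intervals that span 0, and without d3 replicate 3 they were 0.10, 0.04, 0.20 and -0.03.

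The accessory proteins of the pump did not pass either. Atp6ap1, which assists assembly of the pump, was at 13.98, 13.86 and 13.98 on d3 and at 13.98, 13.95, 13.99 and 13.98 on d7. Apart from d3 replicate 3 these values were nearly equal, and the difference was 0.04 (-0.05 to 0.12, adjusted p = 0.682). Atp6ap2, the prorenin receptor, was at 13.97, 14.28 and 14.15 on d3 and at 14.38, 14.28, 14.23 and 14.47 on d7. The groups overlapped, with a difference of 0.21 (-0.02 to 0.44, adjusted p = 0.652), and did not overlap without d3 replicate 3 (0.28). That of Atp6ap1 was -0.0031 without it.

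The precision of these comparisons can be read from the intervals. For 21 of the 37 genes the 95% interval lay within 0.5 of 0 on either side, that is, within a change of 1.41-fold. Lamp1, Lamp2, Psap, Npc1, Npc2, Tfe3, Neu1, Ctsa, Atp6v0b and Atp6ap1 were among them. Of the 12 measured V0 and V1 subunits, Atp6v0b, Atp6v1c1 and Atp6v1f were among them, and the intervals of the other 9 reached beyond that change. Repeated values narrow an interval. Over the 7 arrays Tfeb had 1 different value, Neu1 had 2, and Lamp2 and Atp6v0b had 3 each, while Psap had a single value on d3. For such genes a narrow interval cannot be read as precision of measurement alone.

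The differences were also set out by motif. The 12 measured members with at least 1 of the 3 motifs had a median difference of 0.16 (range -0.20 to 0.90), and in 5 of them the days did not overlap. The 19 with none had a median of 0.14 (range -0.40 to 2.08), and in 6 the days did not overlap. The 6 without a window had a median of 0.17, with 3 that did not overlap, where 6.55% of the probe sets above background did not overlap in this direction. Without d3 replicate 3 the medians were 0.13, 0.01 and 0.12, and 5, 7 and 4 genes did not overlap (10.0% of the probe sets). The difference between these groups of genes was not tested.

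Other genes of the lysosome were listed for comparison: isoforms of pump subunits, further hydrolases and membrane proteins, sorting receptors, and regulators of the MiT factors and mTORC1. Of 72 listed, 67 were measured and 58 lay above background. Of the 67, 1, the pump isoform Atp6v0d2, passed the test, and 0 passed as lower (0.117% of all probe sets passed). The median difference was 0.05, and the days did not overlap in 10 genes, all higher on d7 (6.55% of the probe sets above background, as given before). An unadjusted limma p under 0.05 was reached by 16 higher and 0 lower (8.06% and 9.55% of the probe sets above background). The 67 also include genes below background.

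Atp6v0d2, the isoform of the d subunit known from osteoclasts and some macrophages, was at 8.28, 8.17 and 7.77 on d3 and at 10.51, 10.37, 10.05 and 10.13 on d7. All d7 arrays lay far above d3. The rise was 2.19 (1.77 to 2.61), or 4.56-fold, with an adjusted p of 0.0304, and when each array was left out in turn it passed the test without d3 replicate 1 and missed it in the other fits (adjusted p 0.0442 to 0.149). The member Atp6v0d1 encodes the widely expressed isoform of the same subunit, and its difference of -0.20 was lower than that of Atp6v0d2 by 2.39. An exact two-sided permutation test of this gap over the samples gave p = 0.0571. That is the smallest this form of the test can give with the 35 regroupings of 3 and 4 arrays. The gap is mostly the rise of Atp6v0d2 itself, and the test could not reach 0.05, so no conclusion is drawn from it. Tcirg1, the a3 isoform of the pump's a subunit, differed by 0.01 (-0.05 to 0.07).

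Of the other MiT factors, Mitf differed by 0.02 (-0.09 to 0.12). Tfec, whose expression is known to be largely restricted to macrophages and related cells, was at 8.49, 9.77 and 8.71 on d3 and at 10.06, 9.93, 9.74 and 10.25 on d7. Its lowest d7 array lay just under d3 replicate 3, and the difference was 1.01 (0.18 to 1.83, adjusted p = 0.647), or 1.40 without that array. Lipa, the lysosomal acid lipase, was named after its values were seen and was at 15.32, 14.01 and 14.89 on d3 and at 15.62, 15.63, 15.88 and 15.96 on d7. The days did not overlap, with a difference of 1.04 (0.24 to 1.83, adjusted p = 0.625), or 0.67 without d3 replicate 3.

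The pair with the smallest p in each of the other lists did not pass. Among the hydrolases these were Pld3, with a difference of 0.59 (adjusted p = 0.34), and Galns, with 0.19 (adjusted p = 0.451). Among the membrane proteins they were Hgsnat, an acetyltransferase of heparan sulfate breakdown, with 0.41 (adjusted p = 0.298), and Clcn7, the lysosomal chloride-proton exchanger, with 0.31 (adjusted p = 0.46). Of the sorting receptors, Igf2r, which binds mannose 6-phosphate, differed by 0.42 (adjusted p = 0.276), and Sort1 by 0.55 (adjusted p = 0.455). Of the regulators, Rragc, a GTPase of the mTORC1 pathway, differed by 0.12 (adjusted p = 0.647) beside Tfec.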

How the data were processed

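The deposited values are log2 levels of 72688 probe sets on 7 arrays, summarised by the authors with Affymetrix Expression Console (version and normalization not given in the sources used here), while the study's methods name GeneSpring and dChip for their own analysis. The log2 scale was inferred from their range (1.82 to 19.93), and they are not centred by gene. Leaving out 6732 controls (23 antigenomic, 5222 negative, 1324 positive, 155 spike-in, 8 other) kept 65956 probe sets, of which 30638 carry 1 gene symbol in the platform table, 2176 several and 33142 none listed. In 354 of 30176 genes several probe sets carry the symbol, and the one with the highest mean was used. No sample was left out.

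Days were compared with limma 3.58.1 (R 4.3.3), using a linear model for day alone with moderated two-sided tests over all 65956 probe sets. P-values were adjusted by the Benjamini-Hochberg method, the threshold was 0.05, and the fit was tested on simulated data. Overlap, unadjusted p-values and motifs were counted in Python 3.11.15 (pandas 2.3.3, numpy 2.4.6, scipy 1.17.1, matplotlib 3.10.9). A fold is 2 raised to the log2 difference. Summed marker levels are log2 of the sum of linear values.

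The members, lists and tests were chosen with earlier results of these data known. Values on each array are given for members past the threshold, for up to 3 members with the smallest p in each role and for other lysosomal genes past the threshold. Tfec, Tcirg1 and Mitf, paralogs of members, were named whatever their values. The pair with the smallest p in each other list is named too, and genes chosen after their values were seen are said to be so. The alternatives were quantile normalization, median centring, array weights, a trended or robust variance prior, the methods' t-test before and after adjustment, filters on dim probe sets, 1 probe set per gene, the mean of a gene's probe sets, and each array left out in turn. Limiting the test to probe sets with 7 different values, and counting overlap without d3 replicate 3, were chosen after seeing the data.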

Additional observations from a re-analysis of the deposited data

Results flagged for a closer look

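In 7 of 49 genes listed for the check, 1 d7 array lay apart from the other d7 arrays by most of the group's range (Dixon's test at 4 samples). Genes with equal d7 values, Tfeb, Lamp2 and Atp6v0b among them, could not be tested. Chance gives about 1 in 20 such groups. The gaps were small on the log2 scale, and repeated values make the range of the others narrow. Npc1 was at 10.85 in d7 replicate 8 (others 10.65 to 10.68) and Gla at 12.37 in d7 replicate 6 (others 12.22 to 12.24). Neu1 was at 7.81 in d7 replicate 6 (others 7.83), and Tcirg1 at 12.15 in the same array (others 12.12). Tfe3 was at 8.79 in d7 replicate 7 (others 8.75). Atp6v1d was at 11.91 (others 11.97 to 11.98) and Atp6v1f at 9.66 (others 9.67) in d7 replicate 5.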

How the results depend on the processing

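Of 37 lysosomal genes, 28 kept their direction under every alternative (Tfeb has none), and Gpnmb passed the test with each array left out (1 member in every such fit). Members past the test numbered 2 with quantile normalization, array weights or 1 probe set per gene (Gpnmb and Cd63), 3 with median centring or with probe sets above the array background or at or above the median level (Hexa added), 10 with the methods' unadjusted t-test, and 5 of 16 with 7 different values (Tpp1 and Atp6v1a added). Of all 65956 probe sets, 77 (0.117%) passed in the main comparison, and 77 with array weights. With quantile normalization 169 (0.256%) passed, with median centring 223 (0.338%), and with 1 probe set per gene 88 of 30176 (0.292%). Above background 374 of 19774 (1.89%) passed, at or above the median level 208 of 32978 (0.631%), and with 7 different values 824 of 12129 (6.79%). The unadjusted t-test passed 3652 (5.54%) and its adjustment 13 (0.0197%). With an array left out 1 to 212 passed (0.0015% to 0.321%). Of the other lysosomal genes 13 passed with the unadjusted t-test, 0 with its adjustment, 2 with 7 different values, and 0 to 1 with an array left out. Members higher on d7 without overlap numbered 14, and 16 without d3 replicate 3 (6.55% and 10.0% of the probe sets above background).

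Reversals concerned differences near 0. Lamp2 was -0.0027 with array weights. With quantile normalization and with median centring, Neu1 was 0.0152 and 0.0167, Psap 0.0304 and 0.0044, Npc2 0.0431 and 0.0198, and Atp6v0b 0.0285 and 0.0002. Npc2 was 0.0019 with array weights. With an array left out, Lamp1 ran from -0.0031 to 0.1677, Lamp2 from -0.0151 to 0.0255, Npc2 from -0.0098 to 0.0094, Atp6v0b from -0.0392 to 0.0087, Atp6v1f from -0.0327 to 0.1301 and Atp6ap1 from -0.0031 to 0.0554. The cause of these changes was not tested. No paired analysis was possible because the days share no replicate number.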
